A study of Mus musculus with 8 samples.

Results

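The small leucine-rich proteoglycans are secreted proteins of the extracellular matrix, built on a curved run of leucine-rich repeats that binds collagen and growth factors. The 10 genes described here are *Dcn* (decorin), *Lum* (lumican), *Bgn* (biglycan), *Fmod* (fibromodulin), *Omd* (osteomodulin), *Ogn* (osteoglycin), *Aspn* (asporin), *Podn* (podocan), *Prelp* (prolargin) and *Kera* (keratocan). They were chosen by gene symbol as matrix proteoglycans of capsule and stroma, and all 10 were found among the 21905 symbols carried by the arrays. Each symbol was read from its transcript cluster (the set of probes that the array design assigns to one gene) with the highest mean over the arrays.

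Gene expression was measured in whole adrenal glands of 4 wild-type (WT) and 4 sf1:Cre; Prkar1a Fl/Fl (KO) mice, with 1 Affymetrix Mouse Gene 2.0 ST array per animal. All mice were female and 6 weeks old, and the WT animals were littermates of the KO animals. *Prkar1a* encodes a regulatory subunit that holds protein kinase A (PKA) inactive, so its deletion leaves the kinase constitutively active. Cre is driven by *Sf1* in the steroidogenic cells of the cortex from its inception. The capsule, stroma, vessels and medulla are not the cells that the driver is meant for. Which cells of the gland made the RNAs described here was not measured. The comparison addresses how the RNAs of these matrix proteins stand in the gland when PKA is active in its cortical cells. In a whole gland, fewer cells of a type and less RNA per cell cannot be told apart.

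In connective tissue these proteins sit on collagen fibrils and govern their thickness and spacing. Decorin, biglycan and asporin form class I, of which decorin and biglycan carry chondroitin or dermatan sulfate chains. Lumican, fibromodulin, prolargin, osteomodulin and keratocan form class II, several of which carry keratan sulfate and sulfated tyrosines. Osteoglycin belongs to class III, and podocan to a further class found later. Decorin and biglycan also bind transforming growth factor beta, and decorin binds receptor tyrosine kinases including the epidermal growth factor receptor.

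Values are log2 expression after robust multi-array averaging (RMA), so a difference of 1 is a change of 2-fold, and, beside a check of low signal against kidney markers, a level is compared only between arrays for the same gene. A gene was called when its adjusted p was under 0.05 in limma across 22822 clusters with 1 gene symbol. *Prkar1a* itself was 8.92 ± 0.191 (SD, n = 4) in WT and 7.19 ± 0.191 in KO. It fell by 1.73 (SE 0.117, limma adjusted p = 1.19e-05). Array medians lay between 5.83 and 5.89, and arrays of the same genotype correlated at 0.990 to 0.995 against 0.978 to 0.984 between genotypes. The 6 markers of the adrenal cortex averaged 12.03 to 12.22 on the 8 arrays, with *Mc2r*, the receptor of adrenocorticotropic hormone, lower in KO (-0.61, limma adjusted p = 0.0170), *Cyp11a1*, the first enzyme of steroid synthesis, higher (0.24, adjusted p = 0.0342) and the other 4 not called.

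The promoters of 3 members are shown because 2 of them (*Prelp* and *Fmod*) lie next to each other and kept an almost fixed ratio over the arrays, and *Podn* was the member called lower. Each window runs from 250 bases before to 50 bases after the RefSeq start on build GRCm38.p6, read 5′ to 3′ on the strand of the gene, and capitals mark CCAAT boxes (CCAAT) and GC boxes (GGGCGG). The windows are chr4:108031905-108032204 on the minus strand for *Podn* (the first of its 2 windows), chr1:133921352-133921651 on the minus strand for *Prelp* and chr1:134037004-134037303 on the plus strand for *Fmod*.
Podn: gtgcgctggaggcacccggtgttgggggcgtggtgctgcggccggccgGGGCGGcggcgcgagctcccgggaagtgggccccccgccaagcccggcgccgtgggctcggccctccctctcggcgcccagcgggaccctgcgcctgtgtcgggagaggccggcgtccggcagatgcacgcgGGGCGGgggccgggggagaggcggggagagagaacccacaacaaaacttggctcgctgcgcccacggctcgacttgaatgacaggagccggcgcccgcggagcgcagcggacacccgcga
Prelp: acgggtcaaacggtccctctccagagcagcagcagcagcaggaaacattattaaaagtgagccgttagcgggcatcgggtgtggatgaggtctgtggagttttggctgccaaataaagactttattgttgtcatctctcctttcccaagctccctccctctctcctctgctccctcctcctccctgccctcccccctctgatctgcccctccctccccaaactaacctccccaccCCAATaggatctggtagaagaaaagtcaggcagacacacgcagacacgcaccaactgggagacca
Fmod: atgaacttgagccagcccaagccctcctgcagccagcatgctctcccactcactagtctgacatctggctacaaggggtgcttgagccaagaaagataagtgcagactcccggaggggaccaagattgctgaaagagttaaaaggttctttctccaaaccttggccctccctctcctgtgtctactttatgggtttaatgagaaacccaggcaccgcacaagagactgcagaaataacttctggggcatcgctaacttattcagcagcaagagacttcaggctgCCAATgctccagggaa
The *Podn* window is 77.0% G and C, with GC boxes at -202 and -70 from the start, while the *Prelp* window (55.3%) has a CCAAT box at -15 and the *Fmod* window (51.0%) has one within its first transcribed bases. The RefSeq table held 9 windows for 8 of the members, and *Dcn* and *Lum* were not matched. Of these 9 windows, 4 held CCAAT and 2 held GGGCGG on either strand, against 37.4% and 35.7% of the 32851 promoters in the table. Both of these motifs were added after the others had been read. A TATA box (TATAAA) was found in 2 windows, those of *Aspn* and *Ogn*, against 13.6% of promoters. None of the 9 windows held the cAMP response element as its palindrome (TGACGTCA, 1.79% of promoters) or as the shorter TGACG that the palindrome contains (20.8%), the TCF/LEF letters CTTTGAT (3.73%), the NR5A1 letters AAGGTCA (4.72%) or the AP-1 letters TGANTCA (7.81%), each searched on both strands.

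*Lum* and *Dcn* were higher in KO adrenals, *Podn* was lower, and the other 7 members were not called. Over all clusters 7.35% were called higher and 6.17% lower, and 2 and 1 of the 10 members were called in those directions. The median change of the members was 0.06 on the log2 scale, against -0.02 over all clusters. The median size of the change regardless of direction was 0.38 against 0.11. An unadjusted limma p under 0.05 was seen for 6 of the 10. The share of all clusters under that threshold was not counted, so the 6 are not read as a result about the family. The plot of the members by array shows each value.

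**Figure D1:**
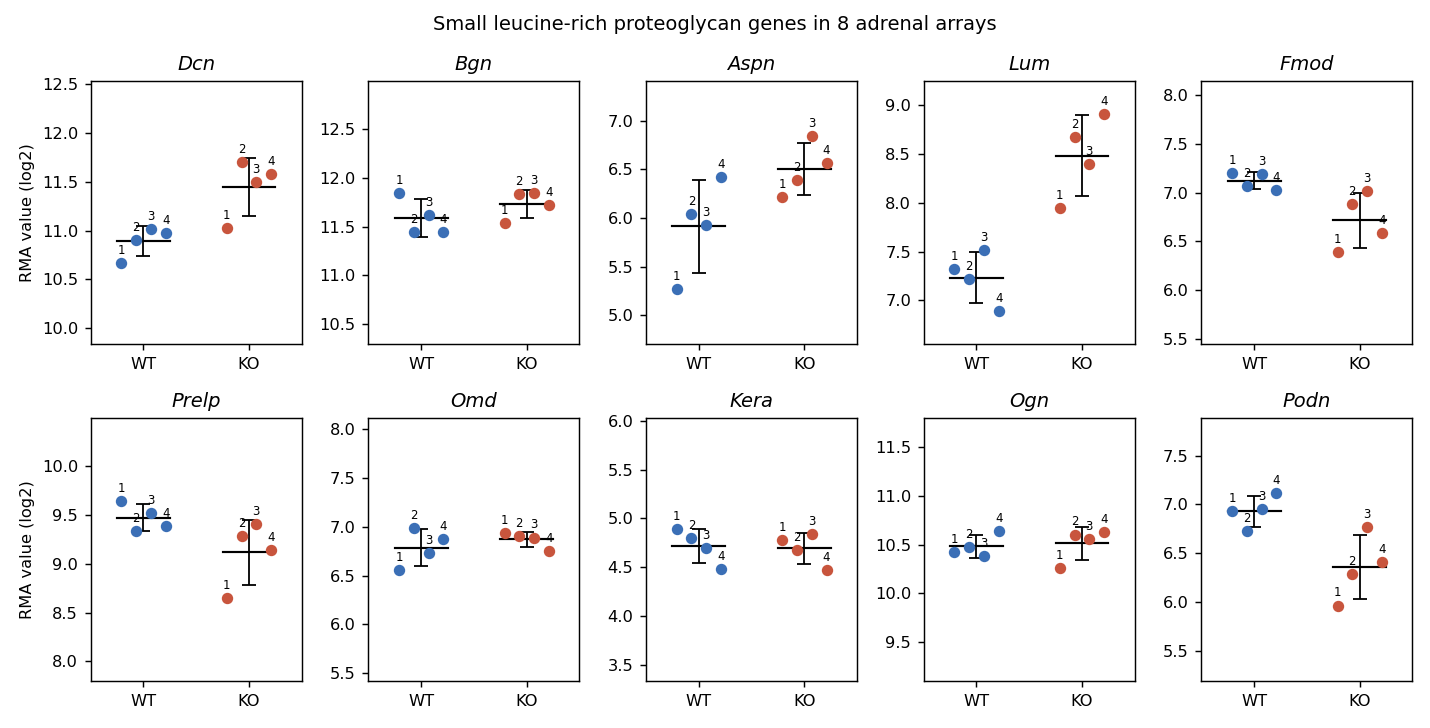
RMA values (log2, y axis) of the 10 genes on the 4 WT and 4 KO arrays, numbered by replicate, with the mean (horizontal line) and SD (bar); every panel spans the same log2 range. The *Lum* arrays separate by 0.43, the *Dcn* and *Fmod* arrays are apart by 0.0070 and 0.012, and the other members overlap.

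Among class I members, *Dcn* encodes decorin, the best known collagen fibril regulator of the family. Its WT arrays read 10.67, 10.90, 11.02 and 10.98, and its KO arrays 11.02, 11.70, 11.49 and 11.58. KO 1 stood just above the highest WT array, by 0.0070, and the other 3 KO arrays were well above. The difference was 0.56 (SE 0.139, 95% interval 0.25 to 0.87), or 1.47-fold higher, with limma adjusted p = 0.0232. The call was lost in each of 5 fits that left out 1 array (WT 1, WT 2, KO 2, KO 3 or KO 4), with adjusted p of 0.0621, 0.0533, 0.0604, 0.0598 and 0.0695.

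*Bgn* encodes biglycan, the closest relative of decorin. Its values were 11.85, 11.44, 11.62 and 11.44 in WT and 11.54, 11.83, 11.84 and 11.72 in KO. The highest array was WT 1, and the genotypes overlapped. The difference was 0.14 (95% interval -0.09 to 0.38, adjusted p = 0.450). A second *Bgn* cluster differed by 0.04 (SE 0.103, adjusted p = 0.877).

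*Aspn* encodes asporin, which lacks the glycosaminoglycan attachment site of its 2 class I relatives. It read 5.27, 6.04, 5.93 and 6.42 in WT and 6.21, 6.39, 6.84 and 6.57 in KO. WT 1 was far the lowest of the 8 arrays, and 2 KO arrays lay above the WT range. The difference of 0.59 (SE 0.216, 95% interval 0.11 to 1.07) was as large as that of *Dcn* but was not called (adjusted p = 0.109). Without WT 4 it was 0.76 and called (adjusted p = 0.0380).

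In class II, *Lum* encodes lumican, a keratan sulfate proteoglycan that limits the thickness of collagen fibrils. Its WT arrays read 7.32, 7.22, 7.51 and 6.89, and its KO arrays 7.94, 8.68, 8.40 and 8.91. All 4 KO arrays were above all 4 WT arrays, with 0.43 between the nearest. The difference was 1.25 (SE 0.195, 95% interval 0.82 to 1.68), or 2.38-fold higher, with limma adjusted p = 0.00181, and 1.26% of all clusters changed by more. With any 1 array left out the adjusted p lay between 3.76e-04 and 0.00715.

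*Fmod* encodes fibromodulin, which competes with lumican for collagen. It read 7.20, 7.07, 7.20 and 7.02 in WT and 6.39, 6.88, 7.01 and 6.59 in KO. Every KO array was below every WT array, but KO 3 only by 0.012. The difference of -0.41 (SE 0.126, 95% interval -0.69 to -0.13) was not called (adjusted p = 0.0590), and without KO 3 it was -0.51 and called (adjusted p = 0.0210). Arrays that did not overlap were seen for 2 of 10 members with KO above and 1 of 10 with KO below, against 10.03% and 8.95% of all clusters.

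*Prelp* encodes prolargin, which bridges basement membranes to collagen. It read 9.65, 9.34, 9.52 and 9.39 in WT and 8.65, 9.28, 9.41 and 9.14 in KO. KO 1 was far below the other arrays, and KO 3 lay within the WT range. The difference was -0.35 (SE 0.148, 95% interval -0.68 to -0.02, adjusted p = 0.159).

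*Omd* encodes osteomodulin, a keratan sulfate proteoglycan known from bone. It read 6.55, 6.99, 6.73 and 6.88 in WT and 6.93, 6.90, 6.89 and 6.76 in KO, so that every KO array lay inside the WT range. The difference was 0.08 (95% interval -0.13 to 0.29, adjusted p = 0.648). *Kera* encodes keratocan, known from the cornea, and read between 4.48 and 4.89 in WT and between 4.47 and 4.84 in KO. Its difference was -0.03 (95% interval -0.26 to 0.21, adjusted p = 0.919), and the sign turned when the arrays were centred on their medians or quantile normalized again. *Kera* lay within the range of 5 markers of kidney, a tissue not sampled (3.66 to 5.84), so its signal was not shown to be above background, while 8 members were above that range on every array and *Aspn* was below its upper end on 1 array.

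*Ogn*, which encodes osteoglycin, was measured at 10.43, 10.48, 10.38 and 10.64 in WT and 10.26, 10.60, 10.56 and 10.63 in KO. KO 1 was the lowest of the 8 arrays, and the other 3 KO arrays lay within the WT range. The difference was 0.03 (95% interval -0.18 to 0.24, adjusted p = 0.886), with the sign turned by a second quantile normalization.

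*Podn* encodes podocan, a collagen-binding member that restrains smooth muscle growth in mouse arteries. Its WT arrays read 6.93, 6.73, 6.95 and 7.12, and its KO arrays 5.96, 6.29, 6.77 and 6.41. Of the KO arrays 3 lay below the WT range, and KO 3 was just above the lowest WT array. It fell by 0.57 (SE 0.151, limma adjusted p = 0.0298), or 1.49-fold. The call was lost without WT 1, WT 3, WT 4, KO 1, KO 2 or KO 4, and without KO 1 the difference was -0.44 (adjusted p = 0.0523). *Podn* is also among the WNT targets and regulators that the study listed, but was not called here with the methods' t-test (adjusted p = 0.124).

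The KO adrenals did not vary evenly. KO 1 was the lowest KO array for 8 of the 10 members, against 29.7% of all clusters, and KO 3 was the highest for 6 of 10, against 24.9%. KO 1 was also the lowest and KO 3 the highest for the mean of 12 capsule and fibroblast markers, which was 6.77 on KO 1, 7.53 on KO 3, 7.30 on KO 2 and 7.24 on KO 4, and ran from 7.18 to 7.27 in WT. None of those 12 markers was called, with a median change of -0.05. The median SD within genotype was 0.22 for the members and 0.12 over all clusters.

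**Figure D2:**
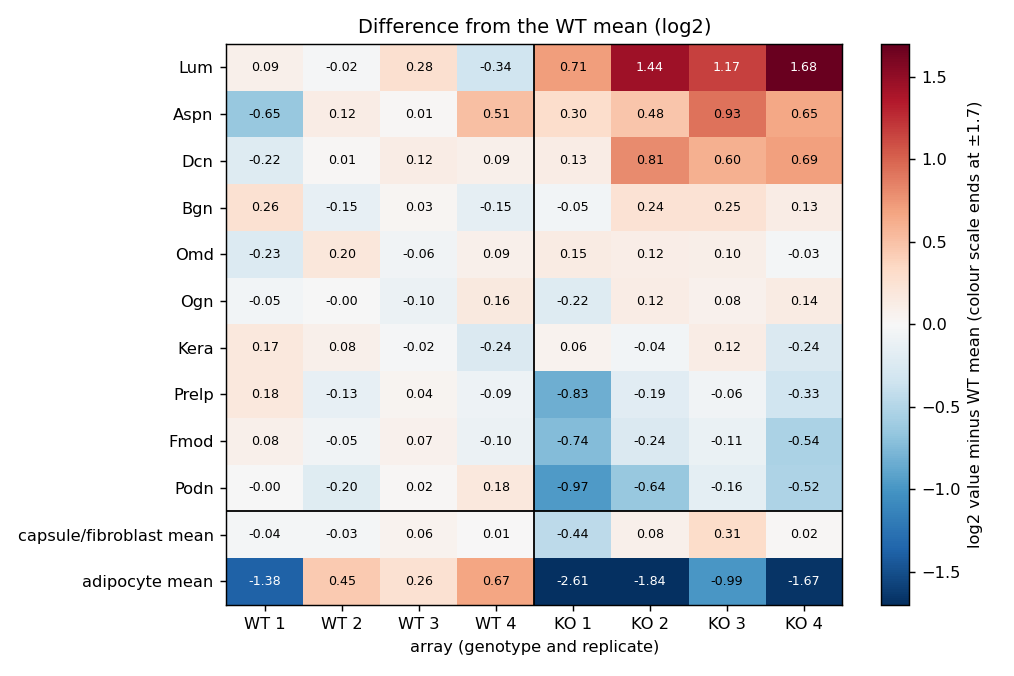
Each member's log2 value minus its WT mean (colour and number) on the 8 arrays, ordered by the change, with the means of the capsule and fibroblast markers and of the adipocyte markers below. KO 1 is the lowest KO array in 8 of the 10 rows of members, and the adipocyte mean is low in all KO arrays and in WT 1.

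With the capsule and fibroblast mean as a covariate in limma, the SE was smaller for 8 of the 10 members and larger for *Omd* (0.099 against 0.095) and *Kera* (0.111 against 0.106). *Podn* was -0.57 with an SE of 0.092 (adjusted p = 0.00283), *Fmod* -0.40 with an SE of 0.081 (adjusted p = 0.00897) and *Prelp* -0.35 with an SE of 0.085 (adjusted p = 0.0234), so that 3 members were called lower. *Dcn* and *Lum* kept their calls at 0.56 and 1.25. Of all 22822 clusters, 1763 were called higher and 1433 lower in that fit.

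Adipocyte markers moved with genotype too. Of 11 adipocyte markers measured, 8 were lower in KO and none higher, with a median change of -1.64. Their mean ran from 7.91 to 9.95 in WT, lowest on WT 1, and from 6.67 to 8.30 in KO, lowest on KO 1. Since this mean follows genotype, a fit that holds it as a covariate has wider errors for most members. In that fit *Dcn* was 0.92 higher (adjusted p = 0.0209), *Aspn* 1.40 higher with an SE of 0.139 (adjusted p = 7.01e-04), and *Lum* 1.31 higher but not called (adjusted p = 0.0525). *Podn* was -0.26 and lost its call (adjusted p = 0.630). The part of fat or of capsule tissue in these results was not tested beyond these fits.

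**Figure D3:**
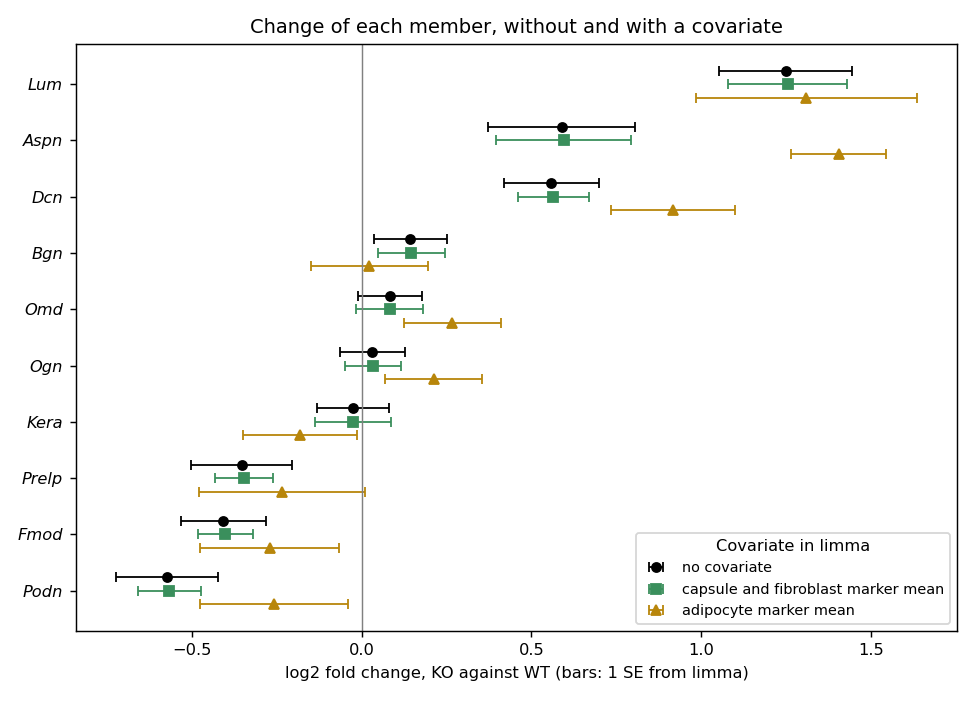
Log2 fold change of each member in KO against WT (x axis, with 1 SE from limma on either side) without a covariate (circles), with the capsule and fibroblast marker mean (squares) and with the adipocyte marker mean (triangles). The circles and squares nearly coincide, while the triangles move *Aspn* from 0.59 to 1.40 and *Podn* from -0.57 to -0.26.

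Several members are neighbours in the genome. In RefSeq order, *Dcn*, *Lum* and *Kera* follow one another on chromosome 10, *Prelp* and *Fmod* on chromosome 1, and *Aspn*, *Omd* and *Ogn* on chromosome 13, where all 3 lie within the span of *Cenpp*. *Podn* is on chromosome 4 and *Bgn* on chromosome X, both away from other members. The ratio of neighbours within each array was compared between genotypes for 7 pairs, chosen after their values had been seen, by an exact two-sided permutation test whose smallest p with 4 against 4 is 0.0286.

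None of the 7 differences passed adjustment over the pairs. With a smallest possible p of 0.0286, a pair could pass only if most of the 7 reached that p. Several pairs also share genes. The lack of a pass therefore does not show that the ratios were alike. On chromosome 10 the *Lum* to *Dcn* log2 ratio differed by 0.69 (SE 0.188, 95% interval 0.23 to 1.15), with no overlap (exact permutation p = 0.0286, adjusted 0.0667). Both ratios to *Kera* were computed but are not read, given its low signal. On chromosome 13 the *Aspn* to *Ogn* ratio was higher by 0.56 (SE 0.230, exact permutation p = 0.0286, adjusted 0.0667), that of *Aspn* to *Omd* by 0.51 (exact permutation p = 0.0857), and that of *Omd* to *Ogn* by 0.05 (exact permutation p = 0.714).

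The *Fmod* to *Prelp* ratio, by contrast, lay between -2.44 and -2.27 in WT and between -2.55 and -2.26 in KO. Its difference was -0.05 (SE 0.070, 95% interval -0.22 to 0.12, exact permutation p = 0.514). KO 1 was the lowest KO array for both genes and KO 3 the highest. The same held for *Podn*, on another chromosome, and for the capsule and fibroblast marker mean. Ratios of members on different chromosomes were not computed.

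For each called member the nearest gene outside the family was sought among 2781 called clusters, by the root mean square difference of log2 values centred per gene over the 8 arrays. All candidates were called between the genotypes, and each gene was picked as the closest on these same 8 arrays, so the likeness follows from the choice and is a description only. *Dcn* was nearest to *Bnc2*, which encodes a zinc finger protein of mesenchymal cells, at 0.062 (the spread of *Dcn* itself being 0.35), and *Bnc2* was 0.57 higher in KO (SE 0.110). *Lum* was nearest to *Mmp2*, the gelatinase that cleaves matrix proteins, at 0.15 against 0.69. *Podn* was nearest to *Lgals1*, which encodes galectin-1, at 0.087 against 0.36, and *Lgals1* fell by 0.69 (SE 0.151, limma adjusted p = 0.0121).

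**Figure D4:**
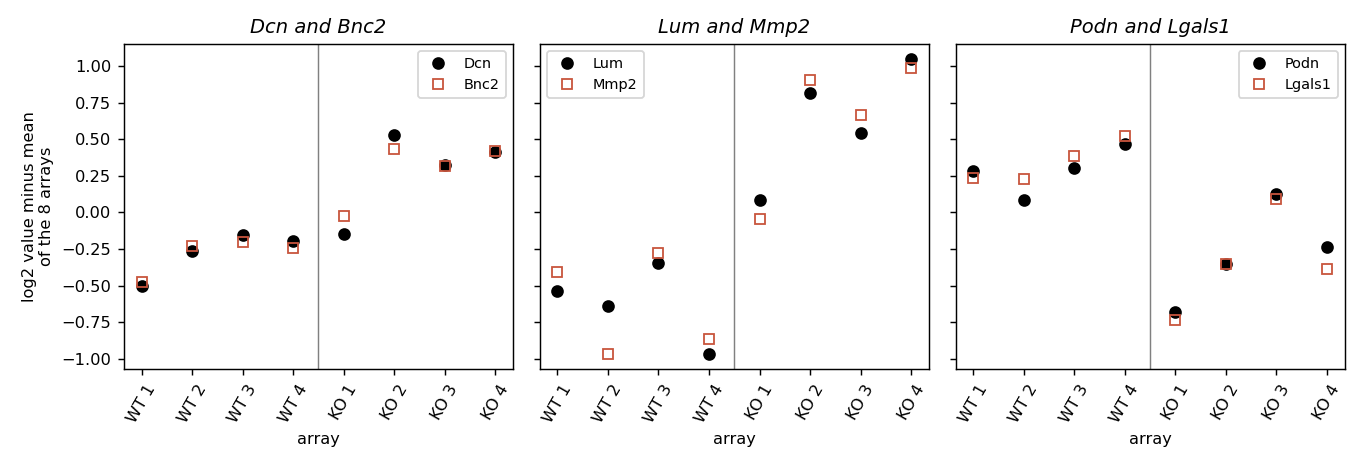
Log2 values of *Dcn*, *Lum* and *Podn* (filled circles) and of the nearest called gene outside the family (open squares), each minus its mean over the 8 arrays, by array. Each pair was picked for its closeness on these arrays, and the root mean square differences are 0.062, 0.15 and 0.087.

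The genes around the family were read from 8 lists holding 84 measured genes, of which 18 were higher, 5 lower and 61 not called, with a median change of 0.04. Over all clusters 7.35% were called higher and 6.17% lower, and the 5 of 84 lower are near that share. The counts of each list below stand beside the same shares, and no list was tested against them. None of 7 further small leucine-rich proteoglycans and relatives measured was called (*Epyc*, *Optc*, *Chad*, *Chadl*, *Nyx*, *Podnl1* and *Ecm2*), and their median was -0.07. Apart from *Ecm2*, none of them read above the upper end of the kidney marker range (5.84) on any array. Their signal was therefore not shown to be above background, and the lack of a call says little about them. *Ecm2*, the neighbour of *Aspn*, differed by -0.30 (SE 0.127).

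Of 12 collagens and matrix partners, 2 were higher and none lower, with a median of 0.22. *Col12a1*, which encodes a collagen that coats fibrils, was 1.15 higher (SE 0.258, limma adjusted p = 0.0137), and *Col6a1*, of the beaded microfibrils, 0.33 higher (SE 0.076, adjusted p = 0.0146). The main fibril collagens were not called, with 0.19 for *Col1a1* (SE 0.170), 0.30 for *Col1a2* (SE 0.162) and 0.58 for *Col3a1* (SE 0.205).

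Of 11 enzymes that cleave the proteoglycans or cross-link collagen, 3 were higher and none lower, with a median of 0.39. *Mmp2* was 1.26 higher (SE 0.227, limma adjusted p = 0.00417), *Adamts4*, an aggrecanase, 0.54 higher (SE 0.064, adjusted p = 3.59e-04), and *Bmp1*, the proteinase that trims procollagen and the propeptide of biglycan, 0.39 higher (SE 0.073, adjusted p = 0.00526). *Adamts4* read 5.03 to 5.69 over all arrays, within the range of the kidney markers (3.66 to 5.84). Its signal was therefore not shown to be above background. *Adamts5*, another aggrecanase, differed by -0.55 (SE 0.168) and was not called.

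Of 12 growth factors and receptors bound by family members, 5 were higher and 1 lower, with a median of 0.30. *Egfr*, a receptor that decorin binds, was 0.96 higher (SE 0.135, limma adjusted p = 9.26e-04), while *Met*, the receptor of hepatocyte growth factor and also bound by decorin, fell by 0.82 (SE 0.164, adjusted p = 0.00717). *Met* lay within the range of the kidney markers (3.66 to 5.84) on every KO array (4.85 to 5.02) and on some WT arrays. *Kdr*, the vascular endothelial growth factor receptor, was 0.44 higher (SE 0.094), and 3 of 6 endothelial markers were higher as well. *Tgfb1*, *Tgfb2* and *Igf1r* were the other called members, at 0.39, 0.28 and 0.39. *Tgfb2* lay within the kidney marker range on every WT array (5.48 to 5.73) and on KO 2 (5.72) and KO 3 (5.83).

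The sugar chains are built by enzymes in 3 lists. Of 7 enzymes of the linker that joins chondroitin or dermatan sulfate to its protein, 3 were higher and none lower (median 0.19). These were *Xylt1*, which adds the xylose that starts the chain, at 0.63 (SE 0.124), *B4galt7*, which adds the first galactose, at 0.50 (SE 0.084), and *Fam20b*, the xylose kinase, at 0.31 (SE 0.077). Of 14 chondroitin and dermatan sulfate enzymes 2 were higher and none lower (median -0.08), both of them transferases that begin chondroitin, *Csgalnact2* at 0.54 (SE 0.077, limma adjusted p = 9.62e-04) and *Csgalnact1* at 0.38 (SE 0.090). *Csgalnact1* lay within the kidney marker range in WT (5.51 to 5.75) and on KO 2 (5.75). Others of this list that were not called had values below 0, such as *Chst11* (-0.40, SE 0.152) and *Chst12* (-0.30, SE 0.094), both chondroitin sulfotransferases.

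Of 9 enzymes of keratan sulfate and tyrosine sulfation, 3 were lower and none higher (median -0.12). *B3gnt2*, which extends lactosamine chains, fell by 0.72 (SE 0.093), *B4galt1*, a galactosyltransferase of those chains, by 0.57 (SE 0.110), and *Tpst1*, a tyrosylprotein sulfotransferase, by 0.33 (SE 0.064). These enzymes also act on many other proteins. Whether the lists differ from one another was not tested.

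Of 12 other matrix proteoglycans 3 were higher and 1 lower (median 0.10). *Vcan*, which encodes versican, read 4.96, 5.05, 4.94 and 5.12 in WT and was 1.37 higher in KO (SE 0.133, limma adjusted p = 1.07e-04), and *Acan*, which encodes aggrecan, was 0.96 higher (SE 0.171). Both lay within the range of the kidney markers (3.66 to 5.84) in WT, where *Acan* read 4.81 to 5.21. Their WT signal was therefore not shown to be above background, and *Acan* on KO 1 (5.38) was also within that range. *Bcan*, which encodes brevican, fell by 0.90 (SE 0.139), and *Spock3*, a testican, was 0.51 higher (SE 0.127). *Spock3* also lay within the kidney marker range in WT (5.27 to 5.63) and on KO 3 (5.71), as did *Bcan* on KO 3 (5.74).

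**Figure D5:**
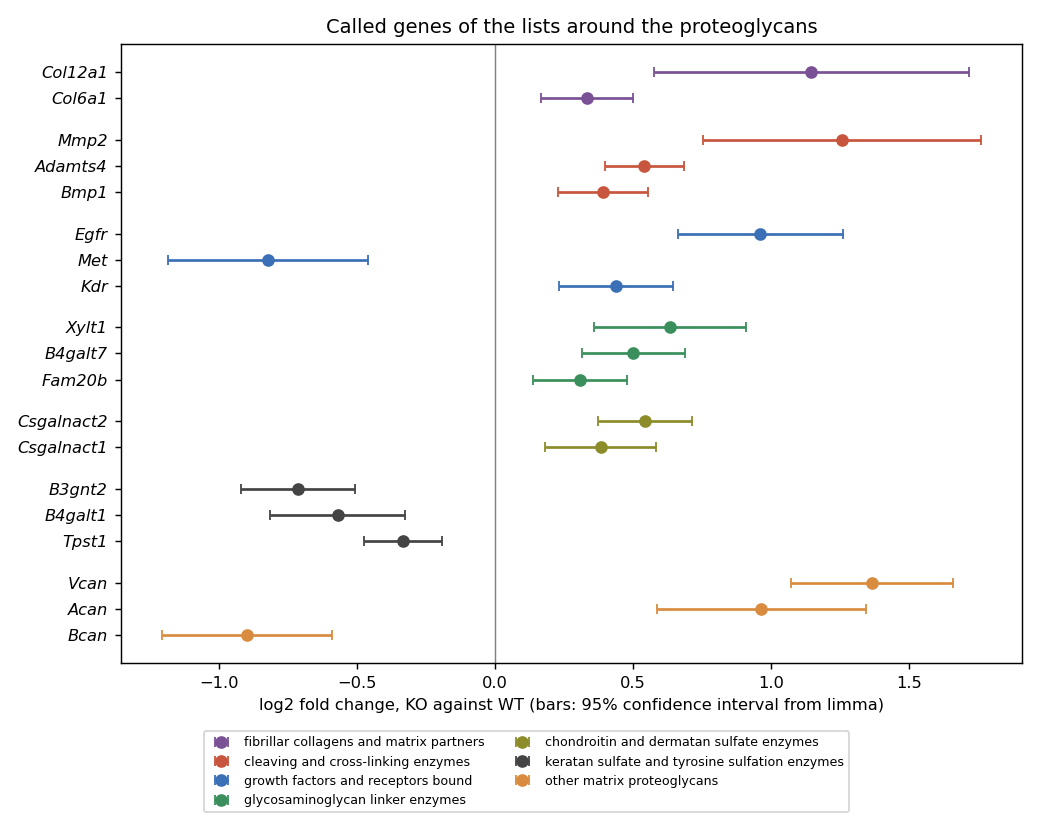
Log2 fold change in KO against WT (x axis, with 95% intervals from limma) of up to 3 called genes per list with the largest change, coloured by list. Only called genes are drawn, so the lists' other genes are not seen here. The plotted values run from -0.90 for *Bcan* to 1.37 for *Vcan*.

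Outside the adipocyte and endothelial lists, markers of other cells gave few calls. Of 6 endothelial markers 3 were higher (*Pecam1*, *Tek* and *Tie1*) and none lower, with a median of 0.24. None was called of 6 smooth muscle, 4 Schwann cell or 5 kidney markers, and 1 each was higher of 6 macrophage and 6 chromaffin markers.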

How the data were processed

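The authors hybridised total RNA from whole adrenals to Affymetrix Mouse Gene 2.0 ST arrays and deposited log2 values per transcript cluster, normalized by RMA with the affy package (version not given). RMA equalises array distributions, so differences are relative, and precision is set by the 4 arrays per genotype. A second deposited table of the authors' fold changes and p-values was not used. The age, the sex and the littermate controls come from the methods.

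Of 28067 clusters, 22822 with 1 symbol in the platform annotation were tested, and 1703 with several and 3542 with none were left out. KO was compared with WT by a two-sided moderated test in limma 3.58.1 (R 4.3.3) with Benjamini-Hochberg adjustment over all clusters, which was tested on simulated data. The members and lists were chosen with earlier results of these data known. Named are all members, *Prkar1a*, up to 3 called genes per list with the largest change, and the nearest gene to each called member. Other genes named were chosen after their values were seen. Promoters came from RefSeq (GRCm38.p6). The files name no genome build for the clusters.

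Alternatives were the methods' t-test, Welch's version, a replicate block, brighter clusters only, trend and robust variance, array weights, 2 rescalings, all clusters, 2 marker covariates and leaving out each array. The limma p-values set the genotype difference against the spread between animals, with each gene's variance moderated over all clusters. Whether same-numbered animals were littermates is not given, so replicate numbers were not used as pairs in the main fit.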

Additional observations from a re-analysis of the deposited data

How the results depend on the processing

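Of the members, 2 were called higher and 1 lower. Counts at an unadjusted p are given below without the share of all clusters, which was not counted. Called higher were 1 with the methods' t-test, 0 with Welch's version (2 at an unadjusted p under 0.05), 3 with the replicate block or array weights (*Aspn* added), and 1 to 3 with an array left out. Called lower were 0 with both of those tests and with the adipocyte covariate in limma (2, 1 and 0 at an unadjusted p under 0.05), 2 with brighter clusters only, array weights or a second quantile normalization (*Fmod* added), 3 with the capsule and fibroblast covariate, and 0 to 2 with an array left out. Over all clusters, 1678 higher became 710 with Welch's version and 659 with the adipocyte covariate, and 1407 lower became 920 with the methods' t-test, 492 with Welch's version and 489 with the adipocyte covariate. Over all lists and markers, 24 higher became 13, 6 and 8 with those 3 settings, and 14 lower became 4, 2 and 3, 9 with trend and robust variance, and 8 to 18 with an array left out. Of all 22822 clusters, 1197 were higher with the methods' t-test, 1423 with the replicate block and 1873 with array weights. Lower were 1185 with the replicate block and 1656 with array weights. A second quantile normalization gave 1652 higher and 1448 lower. With brighter clusters only, 1691 were higher and 1304 lower, of fewer clusters tested. With an array left out, 1315 to 1584 were higher and 1041 to 1310 lower.

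*Lum* lost its call only with Welch's version (adjusted p = 0.0598) and the adipocyte covariate. *Dcn* also lost it with the methods' t-test (adjusted p = 0.106) and Welch's version (0.155), as did *Podn* (0.124 and 0.180). The sign of *Ogn* turned to -0.012 on quantile normalization, and ran from -0.0064 to 0.11 with an array left out. That of *Kera* turned to 0.0034 on centring and 0.024 on quantile normalization, and ran from -0.11 to 0.047. The cause of these changes was not tested.

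Same-numbered arrays deviated with correlations from -0.04 to 0.04, and no WT array was closest to the KO array of its own number. These correlations cannot settle whether same-numbered animals were littermates. With the replicate block, *Aspn* (0.59, SE 0.143, adjusted p = 0.0358) was called, and 19 listed genes were lower.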
